A study of Mus musculus with 7 samples.

Results

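The genes described here encode the chains of the interstitial collagens of bone and fibrous tissue: Col1a1 and Col1a2 (type I), Col3a1 (type III), Col5a1, Col5a2 and Col5a3 (type V), Col6a1, Col6a2 and Col6a3 (type VI) and Col12a1 (type XII). They were chosen by symbol, and all 10 were found among the 42687 gene identifiers of the count table. Transcripts were measured by RNA sequencing in cells positive for CD24 and CD29 (integrin beta 1) that were sorted from digested femurs of C57BL/6 mice and are labelled as skeletal stem cells. Their diet, begun at an age of 3 months and kept for 4 weeks, held 10% fat (LFD, low fat) or 60% fat (HFD, high fat). The series has 4 libraries from LFD, numbered 1 to 4, and 3 from HFD, numbered 2 to 4. The labels name no transgene, deletion or drug in either group and do not say whether a library came from 1 animal or a pool. The comparison asks how the 2 diets differ in the collagen transcripts of these cells.

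Collagen chains wind around each other into a triple helix, which requires a glycine at the head of each repeating Gly-X-Y unit. Type I is the main fibre of bone and is built from alpha 1 and alpha 2 chains, with more of the alpha 1 chain. Type III forms thinner fibres in soft and healing tissue. Type V is a minor partner buried inside type I fibres and helps to start them, type VI forms beaded filaments around cells, and type XII decorates fibre surfaces.

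The Gly-X-Y repeat was visible in the coding sequence of every member, and its length separated the fibre-forming chains from the others. In the longest coding transcript of each gene (GENCODE M21, GRCm38), the longest unbroken run of triplets that begin with a glycine codon was 338 in Col1a1, 339 in Col1a2, 344 in Col3a1, 338 in Col5a1, 339 in Col5a2 and 337 in Col5a3. It was 87 in both Col6a1 and Col6a2, 45 in Col6a3 and 32 in Col12a1, where the run made up 3.1% of the 3065 coding codons. Of the coding exons inside such a run, only those that began in phase, with a glycine codon of the run, were counted. Each of these had a length that was a multiple of 9 bases, for example 41 of 41 in Col1a1, of which 21 were exactly 54 bases. One such exon, the first inside the run, is shown for a member of each type and for both type V chains whose ratio is described below, with the glycine codon that opens each triplet in capitals. They are exon 7 of Col1a1 (chr11:94939697-94939741, plus strand), exon 6 of Col3a1 (chr1:45325360-45325413, plus), exon 15 of Col5a1 (chr2:27965251-27965304, plus), exon 15 of Col5a3 (chr9:20801068-20801121, minus), exon 9 of Col6a1 (chr10:76719623-76719676, minus) and exon 57 of Col12a1 (chr9:79612916-79612969, minus), all coding.
Col1a1: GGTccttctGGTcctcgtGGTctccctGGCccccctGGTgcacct
Col3a1: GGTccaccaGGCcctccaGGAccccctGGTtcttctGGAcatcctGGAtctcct
Col5a1: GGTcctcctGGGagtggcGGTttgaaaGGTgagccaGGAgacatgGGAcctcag
Col5a3: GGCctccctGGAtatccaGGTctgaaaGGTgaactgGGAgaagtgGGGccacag
Col6a1: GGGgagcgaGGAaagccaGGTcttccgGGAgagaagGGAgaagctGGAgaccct
Col12a1: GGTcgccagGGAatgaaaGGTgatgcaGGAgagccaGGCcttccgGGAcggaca
The Col5a1 and Col5a3 exons were identical at 37 of 54 bases (68.5%).

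Total counts ranged from 17391613 to 24681838 per library. LFD libraries held 257 to 526 counts of Xist, the RNA that silences an X chromosome in females, and HFD libraries held 0, while 4 Y-linked genes together had 1 to 5 counts in LFD and 2494 to 3405 in HFD. The labels give no sex, so diet and sex cannot be told apart in any difference below. The sorted surface genes were present in both groups, with Itgb1 at 426 ± 57.9 CPM (counts scaled to the TMM library total) in LFD and 446 ± 59.8 CPM in HFD (SD, n = 4 and n = 3), and Cd24a at 3471 ± 1448 and 2077 ± 1161 CPM. Transcripts of other cell types were present as well. The summed level of 9 erythroid genes was 92692 to 159530.0 CPM in LFD and 22335 to 108160.0 CPM in HFD, and that of 8 granulocyte genes 899.5 to 5062 and 7747 to 15467 CPM. Osteoblast markers (10 genes) summed to 6323 to 8365 and 8363 to 16640.0 CPM, tendon markers (5 genes) to 2003 to 3904 and 3477 to 5881 CPM, fibroblast markers (8 genes) to 2365 to 4805 and 2663 to 4192 CPM, and muscle markers (6 genes) to 242 to 471 and 141 to 144 CPM. Markers of marrow reticular stroma (7 genes) summed to 490 to 738 CPM in LFD and 1666 to 2809 CPM in HFD, and those of monocytes and macrophages (7 genes) to 118 to 725 and 1504 to 1966 CPM. Neither sum overlapped between the diets. The monocyte and macrophage sum was mostly Lyz2 (345 ± 256 CPM in LFD and 1732 ± 240 CPM in HFD). Of the 7 monocyte and macrophage genes 3 were higher in every HFD library, and of the 7 reticular genes 6, where 8.4% of all genes were. The most abundant reticular genes were Cxcl12 (97.2 ± 90.4 and 1556 ± 434 CPM) and Vcam1 (319 ± 53 and 310 ± 68 CPM). Chondrocyte markers (10 genes) summed to 22541 to 45448 CPM in LFD and 34435 to 59730.0 CPM in HFD, pericyte and smooth muscle markers (6 genes) to 342 to 535 and 466 to 630.2 CPM, and Schwann cell markers (4 genes) to 82.9 to 119.8 and 74.4 to 154 CPM. The pericyte and smooth muscle sum was mostly Cspg4 (322 ± 62.1 CPM in LFD and 491 ± 85.9 CPM in HFD). Acta2 went the other way without overlap (105 ± 45.0 and 31.3 ± 9.96 CPM), and of the 5 genes tested 3 had positive and 2 negative log2 fold changes. Endothelial markers (6 genes) summed to 9.25 to 25.7 CPM in LFD and 4.44 to 7.29 CPM in HFD. B lineage markers (5 genes) summed to 0.35 to 31.95 and 29.9 to 63.3 CPM. The endothelial sums, all low, did not overlap between the diets, and neither did those of granulocyte and muscle markers. The 9 sorted and lineage surface genes summed to 2419 to 5521 CPM in LFD and 1681 to 3691 CPM in HFD. Their most abundant gene, Cd24a, was highest in LFD 3 (4852 CPM) and lowest in HFD 2 (774 CPM). The erythroid sum was highest and lowest in the same 2 libraries, a relation that was not tested. None of these lists had a gene at 0 in all libraries, and their part in the collagen results was not tested. In such bulk samples fewer cells of a type and less RNA per cell cannot be told apart.

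Together the 10 genes made up 1.56% to 4.11% of the counts of an LFD library and 3.86% to 6.26% of those of an HFD library (95% Wilson intervals extend at most 0.0104 percentage points to either side and cover counting error only). Type I supplied most of them. It gave 61.3% of the collagen counts in LFD 1, 76.1% in LFD 4 and 86.1% to 89.0% in the other 5 libraries. The other 8 genes summed to between 4914 and 5465 CPM in LFD and between 5177 and 7229 CPM in HFD, so that their sum varied far less between libraries than type I did.

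Per kilobase of merged exons, Col1a1 had the highest level (2508 ± 1221 CPM per kb, SD, n = 7) and Col1a2 the next (1301 ± 626 CPM per kb). Below them came Col6a1 (325 ± 79.5), Col3a1 (177 ± 32.5), Col6a2 (110 ± 28.4, in CPM per kb as before) and Col5a2 (52.6 ± 18.3). Col6a3 (34.9 ± 12.6), Col5a1 (30.7 ± 6.56), Col5a3 (15.5 ± 6.07) and Col12a1 (12.4 ± 3.66 CPM per kb) were lowest. Some neighbours in this order were not consistently ordered. Col6a3 exceeded Col5a1 in 5 of 7 libraries, Col5a3 exceeded Col12a1 in 3 of 7, and Col1a1 and Col1a2 changed places when the longest transcript was used as length (2775 against 3023 CPM per kb). For Col1a2 the merged exons span 12426 bases and the longest transcript 5348 bases. Coverage along the transcripts is not given in a count table, so whether reads were evenly spread along the longest ones, Col12a1 and Col6a3, was not tested.

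**Figure D1:**
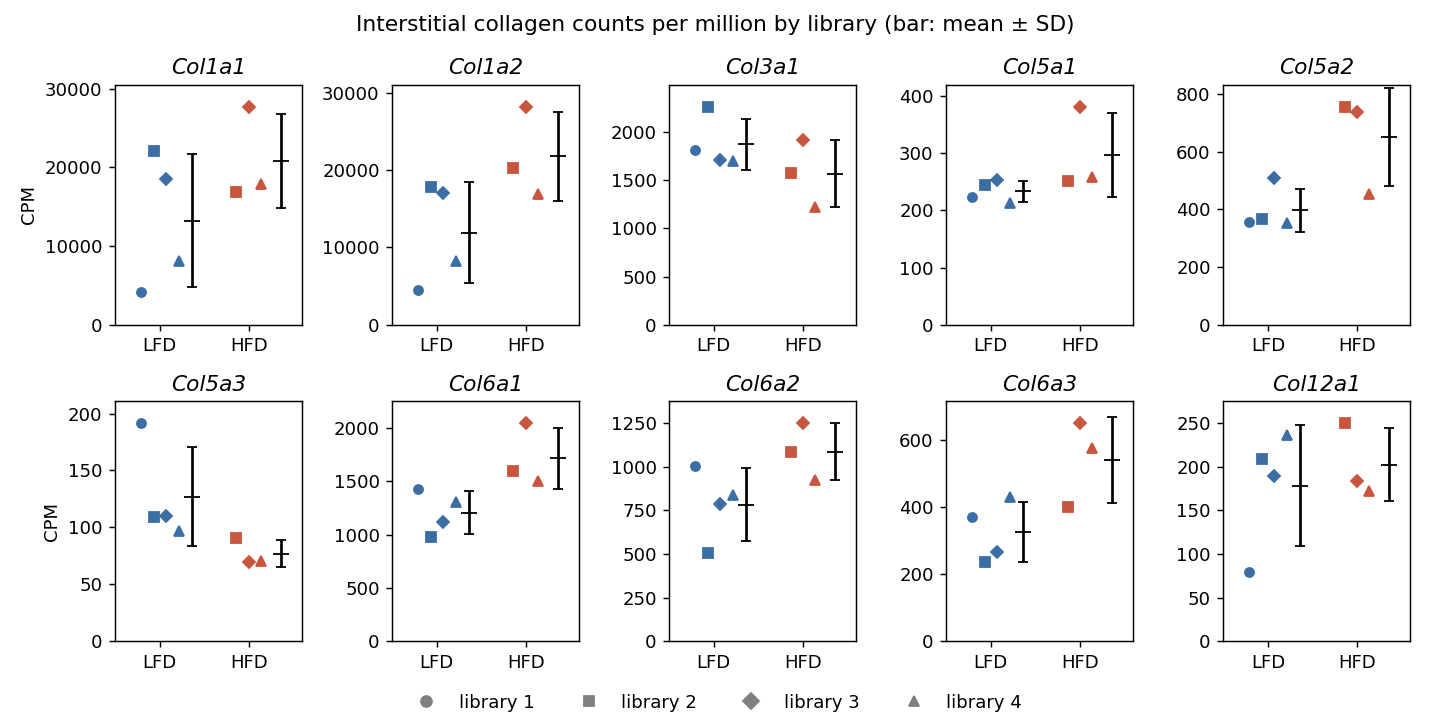
CPM (vertical axis from 0) of the 10 collagen genes in each library, by diet (blue LFD, n = 4, red HFD, n = 3); marker shapes give the library number and black bars the mean ± SD. LFD 1 has the lowest Col1a1, Col1a2 and Col12a1 and the highest Col5a3, and only Col5a3 and Col6a1 separate the diets.

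Type I transcripts were the most variable of the set. Col1a1 measured 4129.9, 22027, 18553 and 8123 CPM in LFD 1 to 4 and 16860.0, 27691 and 17822 CPM in HFD 2 to 4. LFD 1 and LFD 4 lay below all other libraries, while LFD 2 exceeded HFD 2 and HFD 4, so the diets overlapped. Col1a2 followed the same order within LFD, with 4531, 17813, 17099 and 8295 CPM, and reached 20223, 28215 and 16975 CPM in HFD. Within LFD alone the highest library exceeded the lowest 5.33-fold for Col1a1 and 3.93-fold for Col1a2. The log2 fold change of HFD against LFD was 0.65 ± 0.59 for Col1a1 (SE, 95% interval -0.71 to 2.02, edgeR adjusted p = 0.786) and 0.87 ± 0.53 for Col1a2 (-0.35 to 2.09, adjusted p = 0.704). The intervals include both no difference and a rise of more than 2 log2 units. The Col1a1 value was 0.36 without LFD 1, 1.02 without LFD 2 and 0.41 without HFD 3. It was 1.21 with limma-voom (unadjusted p = 0.02275, adjusted p = 0.2366) and 1.11 with the erythroid share as covariate. The erythroid sum took nearly the same order within LFD as type I (LFD 3, LFD 2, LFD 4, LFD 1 from high to low), a relation that was not tested over so few libraries.

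Type III did not share this pattern. Col3a1 measured 1812, 2262, 1705 and 1703 CPM in LFD and 1572, 1914 and 1219 CPM in HFD, and the highest library exceeded the lowest 1.85-fold. LFD 1, lowest for type I, lay among the others. Its log2 fold change was -0.25 ± 0.28 (95% interval -0.90 to 0.39, edgeR adjusted p = 0.831). It was -0.41 without HFD 3, -0.10 without HFD 4, -0.15 without LFD 2 and -0.07 with limma-voom.

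The 3 type V chains differed from each other. Col5a1, the common alpha 1 chain, was the steadiest gene within LFD, with 224, 245, 253 and 213 CPM, and measured 252, 382 and 258 CPM in HFD (log2 fold change 0.35 ± 0.22, edgeR adjusted p = 0.709). Without HFD 3, its highest library, the value was 0.14, and with limma-voom it was 0.59. Its exons overlap those of 2 annotated genes on the other strand, which had at most 38 counts in any library against at least 3916 for Col5a1. Col5a2, the alpha 2 chain, measured 357, 366, 508 and 354 CPM in LFD and 756, 739 and 453 CPM in HFD. HFD 4 lay below LFD 3, so the groups overlapped, and the log2 fold change was 0.71 ± 0.27 (unadjusted p = 0.0308, edgeR adjusted p = 0.611). Col5a3, the alpha 3 chain of a less common form of type V, went in the other direction, with 191, 109, 110.4 and 97.2 CPM in LFD and 90.5, 69.8 and 70.3 CPM in HFD. Every HFD library lay below every LFD library, LFD 1 stood far above the rest, and the log2 fold change was -0.73 ± 0.28 (unadjusted p = 0.0316, edgeR adjusted p = 0.611) or -0.45 without LFD 1 and -0.47 with the replicate block.

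**Figure D2:**
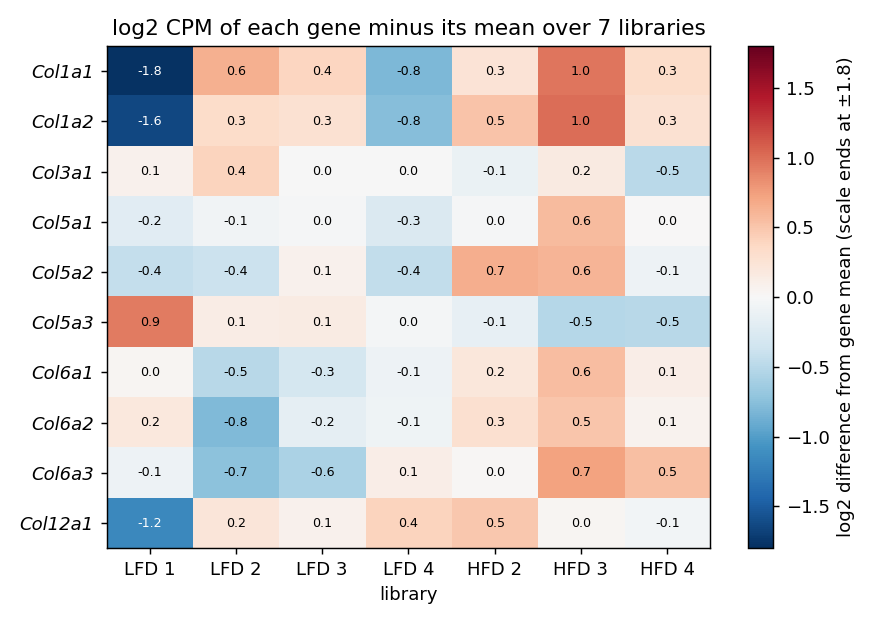
Log2 CPM of each collagen gene (rows) in each library (columns) minus that gene's mean over the 7 libraries, in log2 units; red is above and blue below the mean. LFD 1 is at -1.78 for Col1a1, -1.64 for Col1a2 and -1.17 for Col12a1 but at 0.93 for Col5a3. HFD 3 is above the mean for every gene but Col5a3 (-0.515), though by little for Col3a1 (0.159) and Col12a1 (0.041).

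Type VI chains varied together and were lowest in LFD 2. Col6a1 measured 1428, 980.4, 1117 and 1302 CPM in LFD and 1599.9, 2043 and 1506 CPM in HFD. Every HFD library lay above every LFD library, although HFD 4 exceeded LFD 1 by little, and the log2 fold change was 0.51 ± 0.27 (95% interval -0.10 to 1.12, edgeR adjusted p = 0.693). Col6a2 measured 1003, 506, 786 and 835 CPM in LFD and 1082, 1248 and 923 CPM in HFD, where HFD 4 lay below LFD 1 (log2 fold change 0.47 ± 0.29, edgeR adjusted p = 0.705, and 0.31 without LFD 2). Col6a3, the longest of the 3 chains, measured 369.5, 236, 266 and 429 CPM in LFD and 399, 649 and 575 CPM in HFD, where HFD 2 lay below LFD 4 (log2 fold change 0.73 ± 0.30, unadjusted p = 0.0375, edgeR adjusted p = 0.620). Cspg4, whose product NG2 is a cell surface receptor for type VI collagen, had 322 ± 62.1 CPM under LFD against 491 ± 85.9 CPM under HFD, without overlap (0.61 ± 0.25, adjusted p = 0.620).

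Type XII had no steady direction. Col12a1 measured 79.4, 208, 189.6 and 236 CPM in LFD and 249.8, 184 and 172 CPM in HFD. LFD 1 alone was below 100 CPM, and the other 6 libraries overlapped. The log2 fold change was 0.18 ± 0.36 (95% interval -0.66 to 1.02, edgeR adjusted p = 0.917) and turned to -0.06 without LFD 1.

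Across the list, 8 of 10 genes had a positive and 2 a negative log2 fold change, with a median of 0.49, against a median of 0.02 and 51.5% positive over the 14304 genes tested. None of the 10 passed an adjusted p of 0.05 in edgeR's quasi-likelihood test, which 0.035% of all genes did. The 5 genes called there include the sex-linked Ddx3y, Uty, Eif2s3y and Xist. None of the members passed in DESeq2, where 2.15% of all genes did, or in limma-voom with quality weights, where 0.196% did. At an unadjusted p under 0.05, edgeR had 3 of the 10 (Col5a2, Col5a3 and Col6a3) against 7.53% of all genes. DESeq2 had 4 against 8.2% of the 22988 genes to which it gave a p, and limma-voom had 8 against 16.8% of all genes. One member (Col6a1) had every HFD library above every LFD library, where 8.4% of all genes did, and 1 (Col5a3) the reverse, where 3.47% did.

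**Figure D3:**
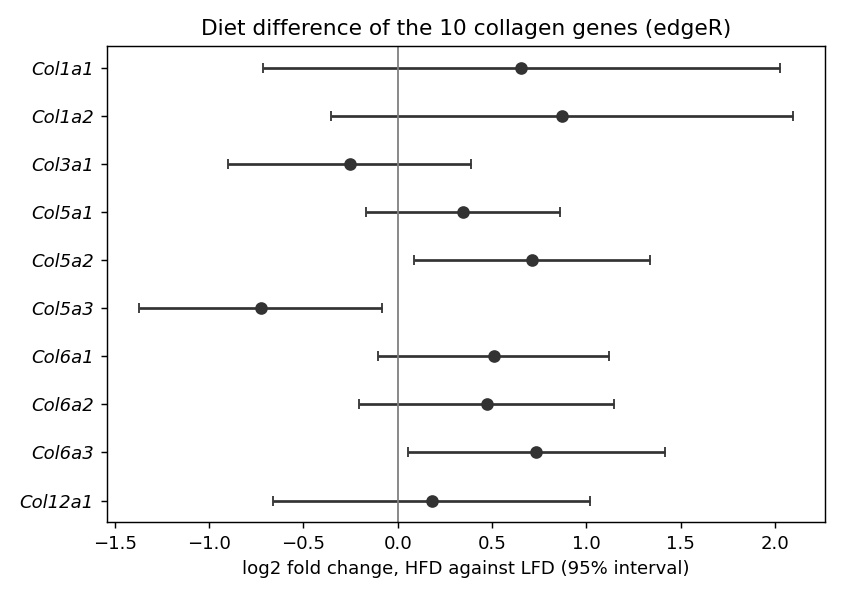
Log2 fold change of HFD against LFD (points, edgeR) with 95% intervals (bars) for each collagen gene; the vertical line marks no difference. Both type I intervals reach past 2, and Col5a2, Col6a3 (above 0) and Col5a3 (below 0) have intervals that leave out 0 before adjustment over all genes.

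Ratios of chains within a library do not depend on its total or on RNA from cells that lack both genes. Of the 45 pairs of members, the steadiest were Col6a1 and Col6a2 (SD of the log2 ratio over 7 libraries 0.16) and Col1a1 and Col1a2 (0.18), which are partners in 1 molecule. Next came the type VI partners Col6a1 and Col6a3 and, as steady, Col5a1 and Col6a1, chains of different types (both 0.27). Other partners were less steady, with 0.32 for Col6a2 and Col6a3, 0.33 for Col5a1 and Col5a2 and 0.69 for Col5a1 and Col5a3. Col6a1 counts were between 1.42 and 1.94 times those of Col6a2, and Col1a1 counts between 0.834 and 1.24 times those of Col1a2. The pair Col6a1 and Col6a2 lies on chromosome 10 on the same strand with 85161 bases between the genes. The least steady pairs set type I against the type V alpha 3 chain, with Col1a1 between 21.6 and 396 times Col5a3 (SD 1.37).

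The diets were compared for 9 ratios by a two-sided exact permutation test of the 35 ways to assign 7 libraries, whose smallest p is 0.0286, with adjustment over the 9. A lone ratio at that smallest p adjusts to 0.257, so no single ratio could have passed 0.05 by itself, and none did. Among the 9, Col5a3 against Col5a1 was the one at the smallest p: it was 0.856, 0.446, 0.437 and 0.455 in LFD 1 to 4 and 0.359, 0.183 and 0.273 in HFD 2 to 4. All 3 HFD libraries lay below all 4 LFD libraries (difference -1.005 log2 units, from -0.93 ± 0.47 in LFD to -1.93 ± 0.49 in HFD, SD, exact permutation p = 0.0286, adjusted p = 0.257). The difference was -0.77 without LFD 1 and ranged from -1.23 to -0.75 when each library was left out. Col3a1 against Col1a1 was 0.439, 0.103, 0.0919 and 0.2097 in LFD and 0.0932, 0.0691 and 0.0684 in HFD, with HFD 2 just above LFD 3 (difference -1.17 log2 units, exact permutation p = 0.143, adjusted p = 0.429). Without LFD 1 it was -0.72. The log2 difference was 0.01 for Col6a1 against Col6a2 (exact permutation p = 0.971) and -0.14 for Col1a1 against Col1a2 (0.371, same test). Col6a1 against Col1a1 spanned 0.0445 to 0.346 within LFD and 0.0738 to 0.0949 within HFD, and the sign of its diet difference (-0.39) turned without LFD 1 (0.15). For the 4 other ratios the exact permutation p lay between 0.143 and 0.429. Over all 45 pairs, 12 had ratios that did not overlap between the diets, and each of these 12 contains Col3a1 or Col5a3, so that they share counts. The share among pairs of other genes was not computed, so the count has no background to be read against. Of single genes, 11.9% did not overlap.

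**Figure D4:**
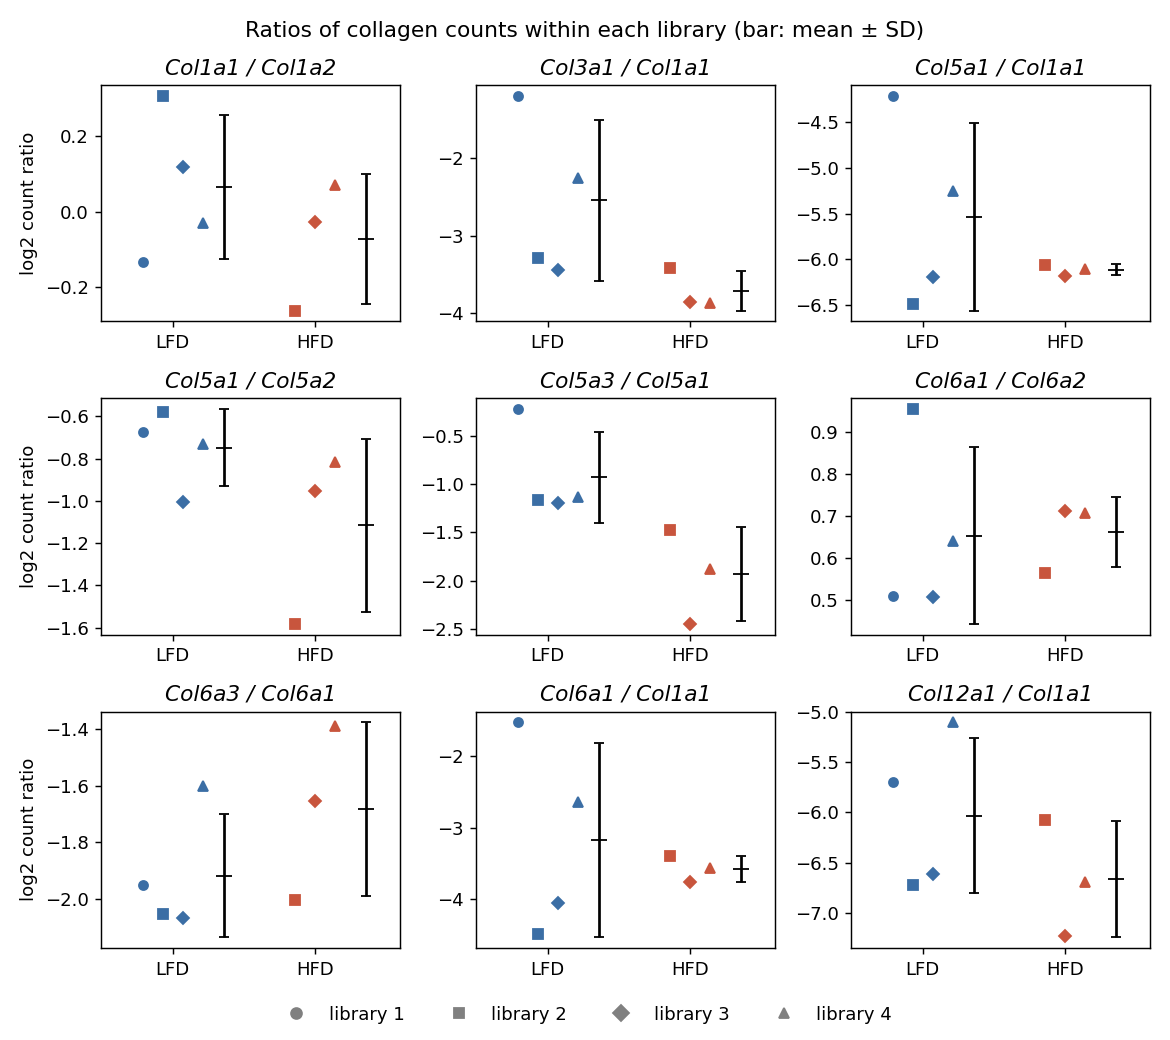
Log2 ratio of the counts of chain pairs (vertical axes, each with its own range) within each library, by diet (blue LFD, red HFD); marker shapes give the library number and black bars the mean ± SD. Col5a3 against Col5a1 alone separates the diets, and ratios to Col1a1 spread widely in LFD where Col1a1 is low in LFD 1 and LFD 4.

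Upstream windows were matched in RefSeq (GRCm38.p6) for 7 of the 10 members by symbol, all but Col1a1, Col5a2 and Col12a1. Those of Col5a1 and Col5a3, the pair at the smallest p among the 9 ratios tested, are shown from 150 bases before the start site up to it, Col5a1 at chr2:27886275-27886424 (plus strand) and Col5a3 at chr9:20815068-20815217 (minus strand), with matches to CCAAT or GGGCGG on either strand in capitals.
Col5a1: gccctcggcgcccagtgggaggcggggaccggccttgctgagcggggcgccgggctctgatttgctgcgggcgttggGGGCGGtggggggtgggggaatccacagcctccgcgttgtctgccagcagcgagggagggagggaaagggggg
Col5a3: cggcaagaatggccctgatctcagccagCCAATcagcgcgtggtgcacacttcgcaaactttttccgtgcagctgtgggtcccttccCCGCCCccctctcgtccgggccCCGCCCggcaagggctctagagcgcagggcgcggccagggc
In the full 300-base windows, GGGCGG occurred 2 times for Col5a1 and 3 times for Col5a3, and CCAAT 0 times and 1 time. Of 32851 such windows in the table, GGGCGG was present in 35.7% and CCAAT in 37.4%. The letters TATAAA, present in 13.6% of windows, were found for Col3a1 but for none of the other 6 matched members. A match describes these letters and is not shown to be a site.

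Genes that act on collagen around these chains were described from 7 lists. No gene of these lists passed edgeR's adjusted threshold, and the counts at an unadjusted p under 0.05 are to be read against 5.18% of all genes higher and 2.35% lower in HFD. Counts of positive values are to be read against 51.5% of all genes, and calls by DESeq2 against 2.15%. Of 22 genes for folding and export of procollagen, 21 had positive values (median 0.40), 5 were higher at an unadjusted p under 0.05 and 0 lower. Serpinh1 encodes HSP47, the chaperone that holds the procollagen helix. It measured 1252, 1956, 1357 and 1588 CPM in LFD and 2727, 2495 and 2029 CPM in HFD (log2 fold change 0.65 ± 0.28, edgeR adjusted p = 0.658). All HFD values lay above all LFD values. LFD 2, high in type I, was the highest LFD library for Serpinh1. LFD 4, low in type I, exceeded LFD 3, high in type I, so the order was not the same. The relation was not tested. P4ha2, a subunit of the prolyl hydroxylase that stabilises the helix, had 0.65 ± 0.23, and Sparc, a collagen-binding matrix protein, 0.76 ± 0.33. Creld2, a folding factor of the endoplasmic reticulum, had 1.08 ± 0.24 and was called higher by DESeq2, as were Sparc and 1.7% of all genes.

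Enzymes that trim and link collagen were mixed. Of 12 tested genes 7 were positive (median 0.49), with 3 higher and 1 lower at an unadjusted p under 0.05. Adamts2, which removes the amino-terminal propeptide of fibrillar procollagens, measured 80.5, 93.0, 114.6 and 73.0 CPM in LFD and 223, 252 and 127 CPM in HFD (1.15 ± 0.28, edgeR adjusted p = 0.290, called by DESeq2). Bmp1, which removes the carboxy-terminal propeptide, had 0.66 ± 0.19 (adjusted p = 0.409). Both had all HFD libraries above all LFD libraries. The lysyl oxidase relative Loxl1 went the other way (65.3 ± 15.2 CPM in LFD and 37.7 ± 3.07 CPM in HFD, -0.79 ± 0.23), while Lox, the main cross-linking enzyme, had 0.36 ± 0.21 and Pcolce, an enhancer of Bmp1, 0.61 ± 0.28.

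Among 18 partners in fibril assembly 13 were positive (median 0.37), 3 at an unadjusted p under 0.05. Tnc (tenascin C) had 1.48 ± 0.39 and was called by DESeq2, Omd (osteomodulin) had 1.33 ± 0.44, and Bgn (biglycan) had 0.61 ± 0.26. The most abundant, Comp and Fn1 (fibronectin), had 0.27 ± 0.38 and 0.48 ± 0.39. Of 12 tested receptors and uptake genes 9 were positive (median 0.32), with Cspg4 higher and Ddr1, a collagen-binding kinase, lower (-0.70 ± 0.24) at an unadjusted p under 0.05. Itga1, the integrin alpha 1 chain, had 1.28 ± 0.63. All 9 tested genes of collagen degradation were positive (median 0.71), 4 at an unadjusted p under 0.05. Timp1, an inhibitor of matrix proteases, had 1.01 ± 0.21, Ctsk, the collagenase of osteoclasts, 1.02 ± 0.26, and Mmp8, the neutrophil collagenase, 3.11 ± 0.94. DESeq2 called these 3 higher, as it did 1.7% of all genes. Granulocyte markers were higher in each HFD library than in each LFD library by the sums given above. The sum of 5 osteoclast markers, Ctsk itself among them, was too (135 to 406 and 583 to 1168 CPM). Under HFD most of it came from Mmp9 (mean 83.8 CPM under LFD against 591 CPM under HFD). Acp5 overlapped between the diets, with a log2 fold change of -0.41 ± 0.47. Among the 4 osteoclast genes tested, 2 were positive and 2 negative. The stromal collagenase Mmp13 had 0.71 ± 0.49, and Timp2 0.30 ± 0.29.

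Of 22 regulators of type I collagen transcription 14 were positive (median 0.24) and 1 was at an unadjusted p under 0.05. This was Creb3l1 (OASIS), a transcription factor of the endoplasmic reticulum that activates Col1a1 in osteoblasts, with 48.4, 59.9, 63.6 and 52.6 CPM in LFD and 81.2, 127 and 75.9 CPM in HFD (0.75 ± 0.23, edgeR adjusted p = 0.435). It did not overlap between the diets, and its order within LFD (LFD 3, LFD 2, LFD 4, LFD 1) was close to that of type I. This relation was not tested over so few libraries, and the erythroid sum had the same order. The CCAAT-binding subunit gene Nfyb had -0.82 ± 0.37, Ccn2 (connective tissue growth factor) 0.75 ± 0.40 and Egr1 0.23 ± 0.33. Of 30 other tested collagen chain genes 21 were positive (median 0.28) and 2 were at an unadjusted p under 0.05, Col22a1 (1.38 ± 0.54) and the basement membrane chain Col4a2 (0.58 ± 0.24). The cartilage chain Col11a1, which can join type V chains in mixed fibrils, had 0.77 ± 0.35, Col11a2 0.66 ± 0.37 and Col2a1 0.41 ± 0.47.

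The genes that tracked 1 chain of each type most closely over the 7 libraries were found among 8976 genes with a mean of at least 8 CPM, by the smallest SD of the log2 ratio to that chain, which is a description with no test. Col1a1 was tracked by Insc, Shc2 and Mmp23 (SD 0.25, 0.26 and 0.29), all at low levels (18.9, 8.48 and 12.3 CPM on average). Col3a1 was tracked by Vps33a, Mpnd and Mbd1 (0.09, 0.09 and 0.10), Col5a1 by Myo1d, Phf13 and Pgs1 (0.11, 0.15 and 0.15), and Col6a1 by Meltf and Mipep (0.11 and 0.12). Any gene that varies little has a small SD against the steady chains Col3a1 and Col5a1. Col12a1 was tracked most closely by Col2a1, the main collagen of cartilage (SD 0.20), then by Slc2a5 (0.20) and Ipmk (0.23). Among the members Col12a1 was closest to Col5a2 and Col5a1 (both 0.58), and its ratio to Col1a1 had 0.72. LFD 1 was the lowest library for both Col12a1 (79.4 CPM) and Col2a1 (10209 CPM), and the part of this library in the likeness was not tested.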

How the data were processed

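RNA of the sorted cells was amplified with SMART-Seq v4 and turned into libraries with Nextera XT, per the labels' protocols. The authors deposited raw counts per Ensembl gene, not normalized. Tools and build named in the submitters' processing notes are STAR 2.5.2b, HTSeq 0.11.2, cutadapt, bcl2fastq 2.20, DESeq2 1.26.0 and mm10. The sources used here do not give the strand setting, the multi-mapping rule or the annotation release. Symbols matched 42250 of 42687 identifiers. Lengths and coordinates came from GENCODE M21 of the same build.

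Diets were compared with edgeR 4.0.16 (R 4.3.3, TMM, filterByExpr, robust quasi-likelihood, diet as the sole term) with Benjamini-Hochberg adjustment over 14304 genes at 0.05. The SE is the log2 fold change over the root of F, and intervals use the moderated degrees of freedom. Alternatives were RLE and upper-quartile scaling, totals without erythroid genes, other filters, fitting that was not robust, DESeq2 1.42.0, limma-voom (limma 3.58.1), the erythroid share as covariate, a replicate block and each library left out. Ratios used counts plus 0.5. The edgeR procedure was first tested on simulated data whose spread was set without regard to diet. There it recovered no gene changed by 1 log2 unit, so differences of the size estimated for the members can go uncalled. The changed genes were drawn over many levels and not matched to the members, so how often this would happen for the members was not tested.

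The members and lists were chosen with earlier results of these data known. Named genes are all members, up to 3 genes per pathway list with the smallest p and the 2 with the highest CPM, 3 genes that track each of 5 chains, 2 genes per cell type list with the highest CPM, and 5 sex-linked genes. One result under this rule is not reported here. The 15 cell type lists are given as sums. Chi-square per degree of freedom between libraries was 55.2 to 678.6, so each was kept as 1 sample. Nothing says that they came from separate animals, and p-values may reflect technical spread in part. No sample was left out.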

Additional observations from a re-analysis of the deposited data

Results flagged for a closer look

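Within the 4 LFD libraries, 19 values were examined for a library far from the others (10 gene levels and 9 ratios) by Dixon's gap over the range at its 95% critical value, a rule that flags about 1 in 20 groups by chance, and 3 stood out. Col5a2 was high in LFD 3 (508 CPM against 354 to 366 CPM), with a gap of 0.922 of the range. Col5a3 was high in LFD 1 (191 CPM against 97.2 to 110.4 CPM), with a gap of 0.859. The ratio of Col5a3 to Col5a1 was high in LFD 1 (0.856 against 0.437 to 0.455), with a gap of 0.937 on the log2 scale, and it shares the Col5a3 counts with the preceding value. Among the LFD libraries, LFD 1 also had the highest sums of fibroblast (4805 CPM), osteoblast (8365 CPM), pericyte (535 CPM), muscle (471 CPM) and Schwann cell (119.8 CPM) markers and the lowest of erythroid (92692 CPM), chondrocyte (22541 CPM), granulocyte (899.5 CPM), monocyte (118 CPM) and osteoclast (135 CPM) markers, and the part of these in the collagen levels was not tested.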

How the results depend on the processing

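The number of members called was 0 under each alternative run, and the median of the members stayed between 0.37 and 0.62. Over all genes the number called was 5 in the main test, 8 with no filter, 0 with 10 counts in 4 libraries, 358 with DESeq2, 28 with limma-voom, 1 with the erythroid covariate and 1 to 6 with a library left out. The 9 members other than Col12a1 kept their sign in all 17 alternatives. Col12a1 (0.18) turned to -0.089 with limma-voom, -0.034 with the erythroid covariate and -0.079 with the replicate block, and ranged from -0.057 to 0.347 with a library left out; the cause was not tested. Members at an unadjusted p under 0.05 numbered 3 (7.53% of all genes), but 8 with limma-voom (16.8%), 1 with the replicate block (9.33%) and 0 to 2 with a library left out (4.19% to 14.3%), with 0 without HFD 3 (5.24%). Same-numbered libraries did not deviate together (r = -0.14, 0.06 and -0.05 over 14304 genes), so the number is taken as a name. The replicate block, in which LFD 1 has no partner, called 0 genes. The Col6a1 to Col6a2 difference (0.01) ranged from -0.041 to 0.108 and the Col6a1 to Col1a1 difference (-0.39) from -0.832 to 0.154 with a library left out. With 3 against 3 libraries the exact test cannot go below 0.1.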

Other observations

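Col3a1 and Col5a2 lie tail to tail on chromosome 1 with 24614 bases between them. They are 1 of the 12 pairs of members, out of 45, whose ratio did not overlap between the diets, a count given without its share among other gene pairs. Their count ratio, chosen after its values were seen and given with no test, was 5.07, 6.17, 3.36 and 4.81 in LFD 1 to 4 and 2.08, 2.59 and 2.69 in HFD 2 to 4. The neighbours on chromosome 10, Col6a1 and Col6a2, by contrast held ratios between 1.42 and 1.94 in all 7 libraries.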
